A study of Mus musculus with 12 samples.

Results

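Striatal projection neurons are the output cells of the striatum, the forebrain nucleus that weighs actions and rewards. Those of the direct pathway carry the D1 dopamine receptor and the peptide substance P, and dopamine raises cAMP in them. Those of the indirect pathway carry the D2 dopamine receptor, the adenosine receptor encoded by Adora2a and enkephalin, and dopamine lowers cAMP in them while adenosine raises it. The 9 genes described here are known markers of these cells, matched by symbol among the 55487 Ensembl gene identifiers of the deposited tables. Drd1 and Tac1 mark the direct pathway, Drd2, Adora2a and Penk mark the indirect pathway, and Ppp1r1b, Rgs9, Pde10a and Foxp1 are used by both. All 9 were matched and all 9 passed the filter on low counts in both comparisons.

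The study sequenced RNA from 12 male mice, 1 library per mouse, in 4 groups of 3, around the loss of Auts2 exon 7. At postnatal day 0 (P0) the tissue was forebrain, from knockouts labelled cmv-cre_auts2-ex7koko and from wild-type littermates labelled BL6 WTLM. At postnatal day 14 (P14) it was hippocampus, from knockouts labelled nes-cre_auts2-ex7koko and from littermate controls labelled auts2-ex7-fl-het. Cmv-cre acts throughout the body, whereas Nes-cre acts in neural progenitors and their progeny, so that vessels and microglia keep the allele. The P14 controls are heterozygous for the floxed allele, and their labels do not say whether they carry Cre. P0 forebrain contains the striatum and hippocampus does not, so the P14 levels of these genes are levels outside their main site.

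The sequences just upstream of the start sites show what the promoters of these genes have in common and where they differ. RefSeq windows on GRCm38.p6, 250 bases before each start, were matched for 6 of the 9 genes, and they held 10 windows in all. Printed here is 1 window each of the direct pathway genes Drd1 and Tac1, of the indirect pathway receptor gene Drd2, and of Rgs9. The matched windows of Pde10a and Foxp1 are not printed. Each is on its gene's own strand and ends where the annotated exons of the gene begin or at the start site. The positions are chr13:54055706-54055908 (minus strand) for Drd1, chr6:7554811-7554878 (plus) for Tac1, chr9:49340153-49340402 (plus) for Drd2 and chr11:109298182-109298431 (minus) for Rgs9. Capitals mark matches of 3 motifs, each searched as written and as its reverse complement. GGGCGG is the GC box, bound by Sp factors. The TATA box, where RNA polymerase is positioned, was searched as TATAAA. The shorter part of a cAMP response element was searched as TGACG.
Drd1: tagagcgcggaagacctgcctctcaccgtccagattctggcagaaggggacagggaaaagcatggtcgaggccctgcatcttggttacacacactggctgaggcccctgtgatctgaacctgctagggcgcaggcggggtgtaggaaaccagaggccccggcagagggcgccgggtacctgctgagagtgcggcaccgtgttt
Tac1: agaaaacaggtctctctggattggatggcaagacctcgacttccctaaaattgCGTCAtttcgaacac
Drd2: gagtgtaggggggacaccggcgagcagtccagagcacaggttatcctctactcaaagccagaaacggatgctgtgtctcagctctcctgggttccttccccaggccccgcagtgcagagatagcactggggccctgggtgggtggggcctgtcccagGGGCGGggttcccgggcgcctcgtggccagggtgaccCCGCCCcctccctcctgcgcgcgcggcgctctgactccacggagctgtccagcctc
Rgs9: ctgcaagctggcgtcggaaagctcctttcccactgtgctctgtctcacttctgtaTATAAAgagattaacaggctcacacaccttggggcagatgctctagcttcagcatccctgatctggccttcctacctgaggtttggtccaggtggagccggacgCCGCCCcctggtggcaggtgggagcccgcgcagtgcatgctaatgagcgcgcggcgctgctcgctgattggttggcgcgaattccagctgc
The full cAMP response element, TGACGTCA, the site through which cAMP acts on many neuronal genes, was in none of the 10 windows and in 1.55% of the 32851 windows of the genome. Its shorter part was in 2 of the 10, those of Tac1 (197 and 43 bases before the start, the second outside the printed run) and of 1 Foxp1 start, against 17.8% genome-wide. The GC box was in 7 of the 10 windows against 32.7%. It stood 93 and 56 bases before the Drd2 start, 91 before the Rgs9 start and 107 before the Tac1 start, the last outside the printed run. None was in the Drd1 window shown, but 1 stood 133 bases before the second Drd1 start, which is not printed. The TATA box was in the Rgs9 window alone of the 10, at 195 bases, against 12.4%. A match describes the letters only, and the full element contains its own shorter part.

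Total counts per library ran from 11247150 to 16796797 at P0 and from 16830720 to 23340621 at P14, and the depth limits the rarest member, Drd1, to between 44 and 57 counts in the P14 controls. The P0 libraries fall in 2 series by library number. Knockout 3 and wild type 3 are numbers 1415 and 1416, with totals of 15457693 and 16796797. The other P0 libraries are numbers 1407 to 1410, with totals from 11247150 to 11755916. Values below are CPM, counts scaled to the same total in every library after TMM normalization, which evens out differences in RNA composition. Auts2 itself had 165, 182 and 161 CPM in the P0 knockouts and 160, 136 and 155 in wild types, and 93.0, 77.5 and 75.2 in the P14 knockouts and 97.5, 98.0 and 110 in controls. These gene-level counts sum all exons, so they do not check the loss of the targeted exon. At P14 the hippocampal pyramidal cell markers summed to between 885 and 969 CPM in all 6 libraries, and the glutamatergic neuron gene Slc17a7 averaged 1736 CPM in controls.

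All 9 genes were detected in all 12 libraries, and their order was set on a scale of CPM per kilobase of exon. In P0 wild-type forebrain Penk, the enkephalin precursor, led with 13.8 ± 0.872 (SD, n = 3), followed by Foxp1, a transcription factor of striatal neurons, with 13.3 ± 1.26, Ppp1r1b with 11.5 ± 0.611, Pde10a with 11.2 ± 0.742 and Tac1 with 9.43 ± 1.38 CPM per kilobase. For neighbours within these 5, the ranges of 1 SD on either side of the mean overlapped. A gap between such ranges separated them from Adora2a at 5.78 ± 0.772, Drd2 at 4.83 ± 0.221 and Rgs9 at 4.77 ± 0.993. Another separated those from Drd1, the lowest, at 3.11 ± 0.187 CPM per kilobase.

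In the P14 control hippocampus the order was similar, and every mean was lower. Penk stood at 8.09 ± 2.88 (SD, n = 3), Ppp1r1b at 7.82 ± 1.07 and Pde10a at 7.33 ± 1.07 CPM per kilobase, with Foxp1 at 5.56 ± 0.243 and Tac1 at 4.67 ± 0.765 next. Rgs9 at 2.30 ± 0.218, Adora2a at 1.84 ± 0.832 and Drd2 at 1.56 ± 0.239 lay close together, and Drd1 was again lowest with 0.763 ± 0.0989. In the P14 knockouts Drd1 rose to 2.08 ± 0.592 on this scale and took the place above Drd2, at 1.71 ± 0.592, from which it did not differ beyond 1 SD.

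Between the control groups, 8 of the 9 genes were lower in P14 hippocampus than in P0 forebrain by edgeR, against 31.7% of all genes lower and 64% changed in either direction. Tissue and age cannot be told apart in this comparison. The log2 difference was largest for Drd1, at -2.02, then Adora2a, at -1.65, Drd2, at -1.63, and Foxp1, at -1.25. Rgs9 at -1.05 and Tac1 at -1.01 came next, and Pde10a, at -0.61, and Ppp1r1b, at -0.56, moved least among the 8. Their edgeR adjusted p ran from 5.79e-12 for Foxp1 to 0.0257 for Ppp1r1b, which lost the threshold without P14 control 1 or 3 or P0 wild type 1 or 3. Penk, at -0.77 with an edgeR adjusted p of 0.0699, was the gene that did not pass, although it did with DESeq2 (0.0394), the larger strand column (0.0437) and the non-robust edgeR fit (0.0118), and without P14 control 2 or P14 knockout 2 or 3.

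**Figure D1:**
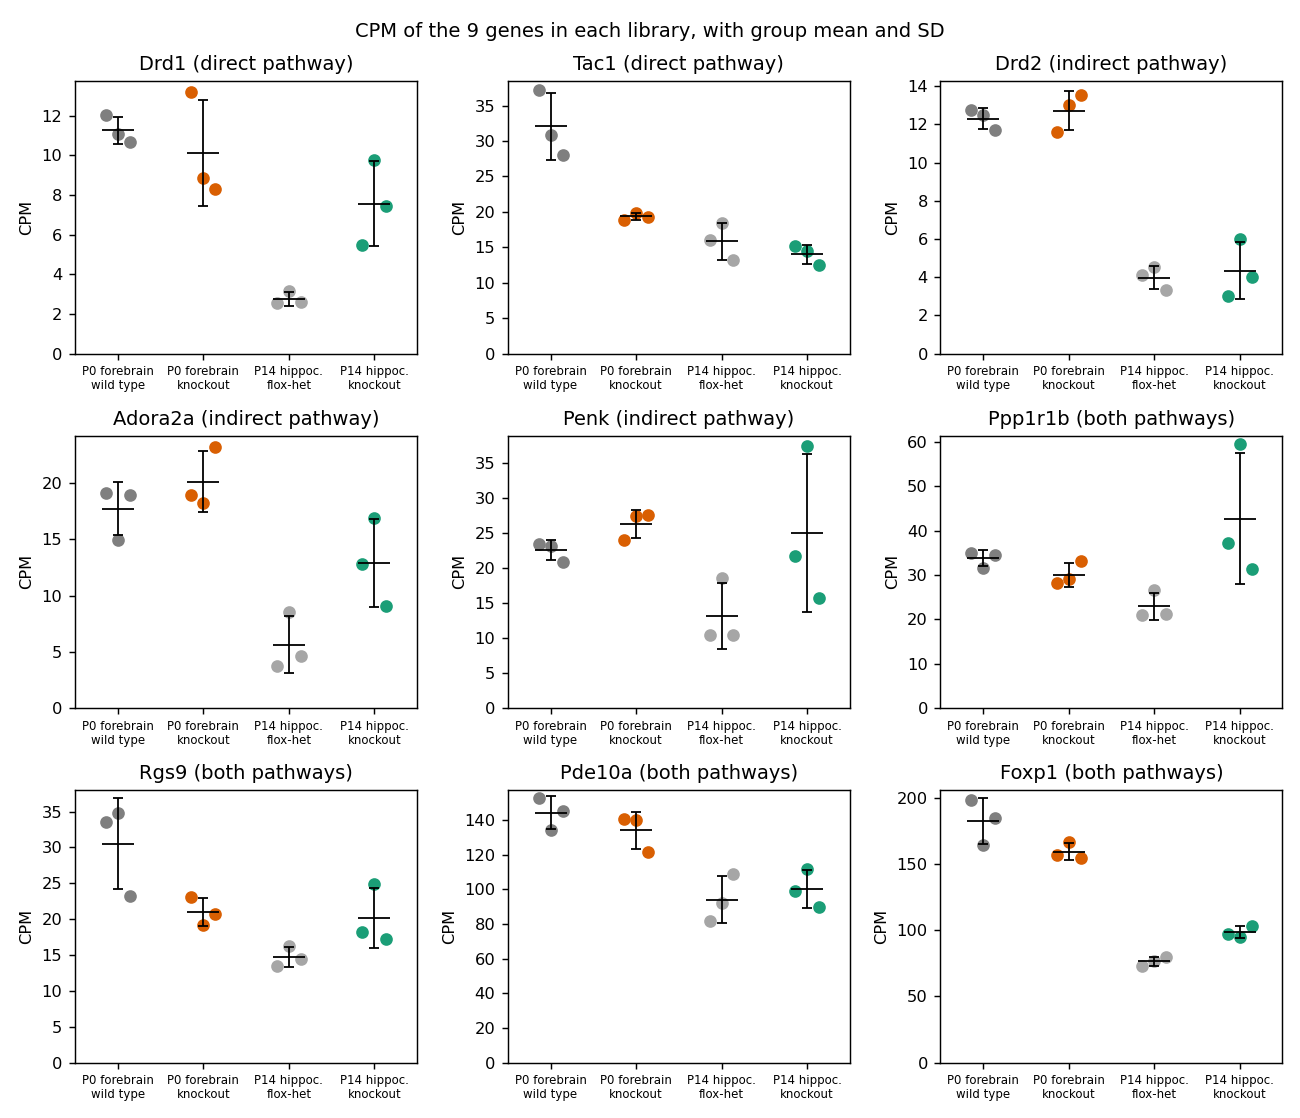
CPM of each of the 9 genes (y axis, linear, from 0) in each of the 12 libraries (points), with group means (wide lines) and SD (bars, n = 3), for P0 forebrain and P14 hippocampus. Tac1 in the P0 knockouts lies between 18.8 and 19.9 CPM, below every wild type, and Drd1 in the P14 knockouts lies between 5.47 and 9.76 CPM, above every control.

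The first comparison asks what loss of the targeted exon does to these genes in newborn forebrain. Tac1, the precursor of substance P, fell in the knockouts, and no other member passed the test. By edgeR 1 of the 9 genes passed an adjusted p of 0.05, against 0.909% of all 16176 genes tested, and against 0.717% called lower. The median log2 fold change of the 9 was -0.16, with 3 positive, and that of all genes was -0.00. Without knockout 3 the median of the 9 was -0.04, with 2 positive, and with the larger strand column it was -0.10, with 1 positive.

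Tac1 (ENSMUSG00000061762, chromosome 6, 7554879 to 7565834, plus strand) had 37.2, 30.9 and 28.1 CPM in the wild types and 18.8, 19.9 and 19.3 CPM in the knockouts. The groups did not overlap, and the knockouts were close to each other, at 19.3 ± 0.524 against 32.1 ± 4.69 CPM (SD, n = 3). The log2 fold change was -0.73 (SE 0.12) with an edgeR adjusted p of 0.0197, the 14th smallest p of all genes. It kept its sign but lost the threshold when any 1 of knockouts 1 or 2 or wild types 1 or 2 was left out, with edgeR adjusted p of 0.101, 0.0635, 0.152 and 0.107, while leaving out knockout 3 or wild type 3 kept it. The libraries whose loss ended the call are those numbered 1407 to 1410, and knockout 3 and wild type 3 are 1415 and 1416. Drd1 (ENSMUSG00000021478, chromosome 13, 54051183 to 54055705, minus strand), the D1 dopamine receptor, had 12.01, 11.1 and 10.7 CPM in the wild types and 13.2, 8.87 and 8.29 CPM in the knockouts. Knockout 1 was above every wild type and the other two knockouts were below them. The log2 fold change of Drd1 was -0.16 (SE 0.17, edgeR adjusted p = 0.690), with a 95% interval from -0.50 to 0.18.

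The genes of the indirect pathway did not pass the test at P0. Drd2 (ENSMUSG00000032259, chromosome 9, 49340627 to 49408177, plus strand), the D2 receptor, had 12.8, 12.5 and 11.7 CPM in the wild types and 11.6, 13.01 and 13.6 CPM in the knockouts. The groups overlapped, with a log2 fold change of 0.05 (SE 0.13) and a 95% interval from -0.20 to 0.30. Adora2a (ENSMUSG00000020178, chromosome 10, 75316877 to 75334784, plus strand), the adenosine receptor, had 19.2, 15.0 and 19.0 CPM in the wild types and 18.9, 18.2 and 23.2 CPM in the knockouts. These also overlapped, with a log2 fold change of 0.18 (SE 0.13). Penk (ENSMUSG00000045573, chromosome 4, 4133531 to 4138819, minus strand) had 23.5, 23.2 and 20.9 CPM in the wild types and 24.0, 27.4 and 27.6 CPM in the knockouts. All 3 knockouts were above all 3 wild types for Penk, by a narrow margin, and the edgeR adjusted p was 0.315 at a log2 fold change of 0.22 (SE 0.11).

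Among the shared genes, Rgs9 (ENSMUSG00000020599, chromosome 11, 109225355 to 109298129, minus strand), which encodes a protein that shortens G protein signals downstream of D2 and opioid receptors, had 33.5, 34.7 and 23.2 CPM in the wild types. Its knockouts had 23.1, 19.2 and 20.8 CPM. The groups were separated by the distance between 23.1 and 23.2 CPM, because wild type 3 was far below its group. The log2 fold change of Rgs9 was -0.53 (SE 0.14, edgeR adjusted p = 0.0982), and without wild type 3 it was -0.69 with an edgeR adjusted p of 0.0174. DESeq2 gave Rgs9 an adjusted p of 0.0339.

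Ppp1r1b (ENSMUSG00000061718, chromosome 11, 98348404 to 98357796, plus strand), whose product DARPP-32 inhibits protein phosphatase when cAMP rises, had 34.95, 31.7 and 34.6 CPM in the wild types and 28.1, 29.0 and 33.1 CPM in the knockouts. Knockout 3 lay among the wild types, and the log2 fold change was -0.17 (SE 0.10). Pde10a (ENSMUSG00000023868, chromosome 17, 8525372 to 8986648, plus strand), the phosphodiesterase that degrades cAMP and cGMP in striatal neurons, had 153, 134 and 145 CPM in the wild types and 141, 140 and 122 in the knockouts. Foxp1 (ENSMUSG00000030067, chromosome 6, 98925338 to 99522721, minus strand) had 198, 164 and 184 CPM in the wild types and 157, 167 and 155 CPM in the knockouts. Both genes overlapped between the groups, at log2 fold changes of -0.11 (SE 0.08) for Pde10a and -0.20 (SE 0.08) for Foxp1. Groups failed to overlap for 3 of the 9 genes at P0, Tac1 and Rgs9 lower and Penk higher, while 21.6% of all genes did not overlap, 11.5% with knockouts lower and 10.2% with knockouts higher. For each of these 3 the exact two-sided permutation p was 0.1, the smallest that 3 against 3 allows.

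The second comparison puts the P14 knockout hippocampus beside the floxed heterozygous controls. Drd1 rose 2.73 times in mean CPM and Foxp1 rose 1.29 times. Adora2a, Ppp1r1b and Rgs9 were also higher in every knockout than in any control, but did not pass the adjusted test. Tac1, the partner of Drd1 in direct pathway neurons, was not higher: its estimate was the only negative one among the 9. By edgeR 2 of 9 genes passed, against 1.99% of all 17208 genes tested and 1.21% called higher. The median log2 fold change of the 9 was 0.47, with 8 positive, against -0.01 for all genes. The 5 genes whose groups did not overlap, all higher in knockouts, compare with 10.3% of all genes higher without overlap and 20.1% in either direction. In whole tissue, more cells of a type and more RNA per cell cannot be told apart.

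Drd1 had 2.54, 3.18 and 2.58 CPM in the P14 controls, from 44, 57 and 49 counts, and 5.47, 9.76 and 7.44 CPM in the knockouts, from 110, 210 and 117 counts. The lowest knockout was well above the highest control. The log2 fold change of Drd1 was 1.46 (SE 0.22, edgeR adjusted p = 0.00341). It stayed past the threshold without any single library, with log2 fold changes from 1.23 to 1.64. The call ended when knockout 2 and control 1 were left out together, at 1.17 with an edgeR adjusted p of 0.0772. Tac1 had 16.1, 18.4 and 13.2 CPM in the controls and 15.1, 14.5 and 12.5 CPM in the knockouts. These overlapped, with a log2 fold change of -0.16 (SE 0.14) and a 95% interval from -0.43 to 0.10.

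In the indirect pathway at P14, Adora2a had 3.76, 8.54 and 4.64 CPM in the controls and 12.8, 16.9 and 9.09 CPM in the knockouts. Control 2 was high and stood just under knockout 3. The log2 fold change of Adora2a was 1.21 (SE 0.35, edgeR adjusted p = 0.169), and without control 2 it was 1.64 with an edgeR adjusted p of 0.0145. Penk had 10.5, 18.7 and 10.5 CPM in the controls and 21.8, 37.5 and 15.7 CPM in the knockouts. Knockout 3 was below control 2, so the groups overlapped, and the log2 fold change of Penk was 0.94 (SE 0.44, edgeR adjusted p = 0.422). Without knockout 2 the Penk estimate was 0.53. Drd2 had 4.10, 4.52 and 3.32 CPM in the controls and 3.03, 5.99 and 4.01 CPM in the knockouts. The Drd2 knockouts held both the lowest and the highest value, and the log2 fold change was 0.14 (SE 0.24) with a 95% interval from -0.33 to 0.62.

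Of the shared genes at P14, Foxp1 had 73.0, 76.8 and 79.7 CPM in the controls and 97.2, 95.2 and 103 CPM in the knockouts. The groups were tight and apart, at 76.5 ± 3.34 and 98.6 ± 4.33 CPM (SD, n = 3), and the log2 fold change was 0.38 (SE 0.07, edgeR adjusted p = 0.0161). Its estimate stayed between 0.34 and 0.41 without any 1 library, but the edgeR adjusted p rose to 0.0942, 0.0812, 0.0711 and 0.101 without knockout 1, knockout 3, control 1 or control 2. Ppp1r1b had 21.1, 26.5 and 21.1 CPM in the controls and 37.2, 59.4 and 31.4 CPM in the knockouts. The groups of Ppp1r1b did not overlap, but knockout 2 spread them widely, and the log2 fold change of 0.91 (SE 0.26) had an edgeR adjusted p of 0.191. Without knockout 2 the Ppp1r1b estimate was smaller, 0.60, and its edgeR adjusted p was 0.0425.

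Rgs9 had 13.5, 16.2 and 14.4 CPM in the P14 controls and 18.1, 24.9 and 17.3 CPM in the knockouts, again without overlap, at a log2 fold change of 0.47 (SE 0.14, edgeR adjusted p = 0.110). Without knockout 2 the Rgs9 estimate was 0.29. Pde10a had 81.6, 91.9 and 109 CPM in the controls and 98.9, 112 and 89.7 CPM in the knockouts. These interleaved, with a log2 fold change of 0.10 (SE 0.11) and a 95% interval from -0.12 to 0.32. For Drd1, Adora2a, Ppp1r1b, Rgs9 and Foxp1 the exact two-sided permutation p was 0.1 each, the smallest possible.

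**Figure D2:**
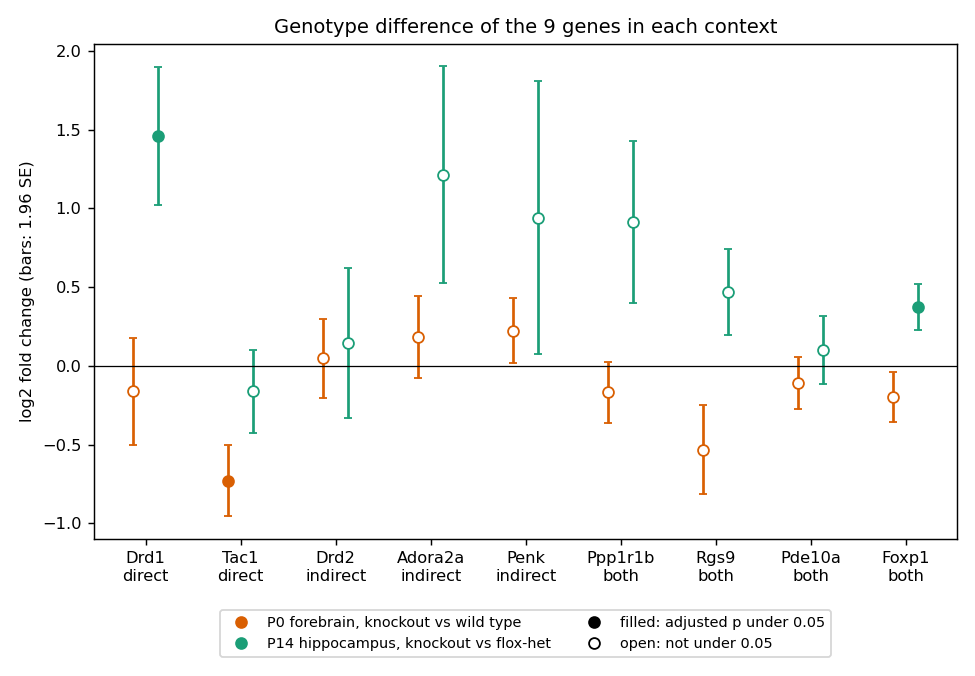
Log2 fold change of knockout against control (y axis) for the 9 genes (x axis, with pathway), at P0 in orange and P14 in green, with bars of 95% intervals. Filled points passed an edgeR adjusted p of 0.05: Tac1 at P0 (-0.73), and Drd1 (1.46) and Foxp1 (0.38) at P14.

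The P14 knockout libraries were not alike. Against the mean of the controls on the log2 CPM scale, the median of the 9 genes was 0.35 in knockout 1, 0.76 in knockout 2 and 0.30 in knockout 3. Knockout 2 had the highest P14 value of Drd1, Drd2, Adora2a, Penk, Ppp1r1b, Rgs9 and Pde10a, but not of Tac1 or Foxp1. Among controls, number 2 was highest, with a median of 0.20 and 8 of 9 genes positive. Without knockout 2 the median log2 fold change of the 9 genes was 0.40, with 7 positive, against 0.47 with it. Without it 3 of 9 genes passed edgeR, Ppp1r1b besides Drd1 and Foxp1, and Drd2 turned to -0.17. The number of all genes called also moved, from 104 to 1808 in the fits without 1 library, against 342 in the main fit.

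**Figure D3:**
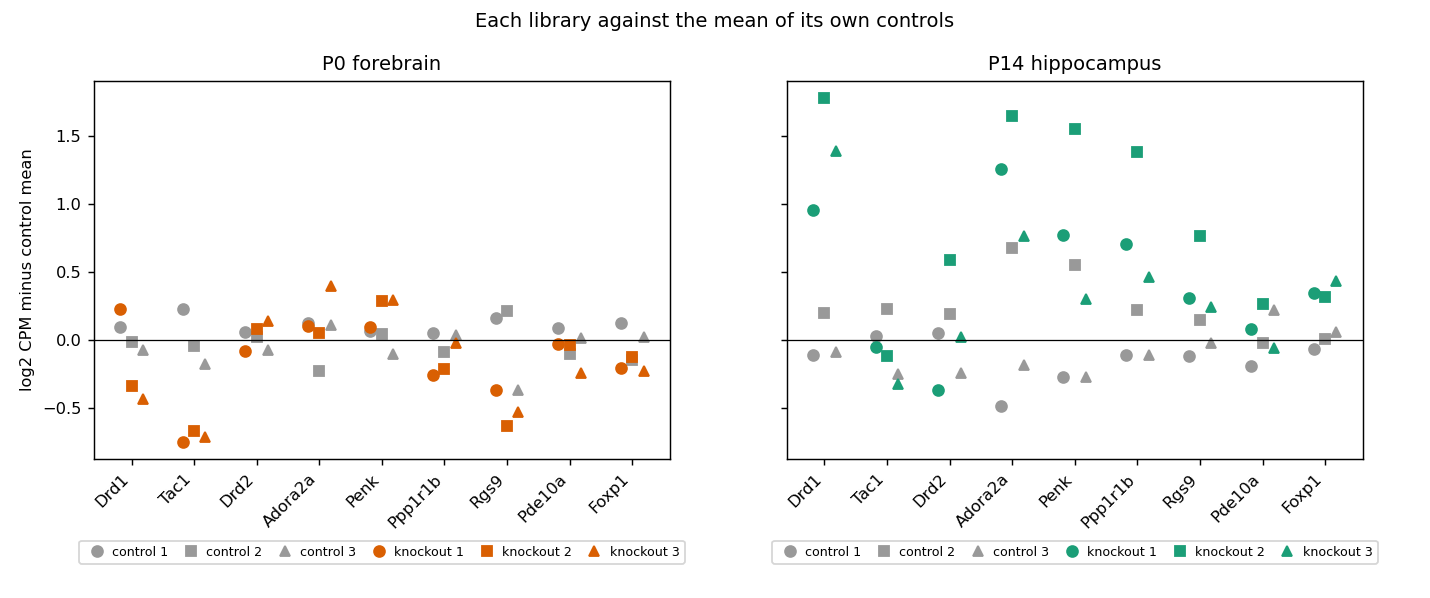
Log2 CPM of each gene in each library minus the mean of the controls of the same age (y axis), for P0 forebrain (left) and P14 hippocampus (right), with 1 symbol per replicate. P14 knockout 2 (squares) is highest for 7 of the 9 genes, and the 3 P0 knockouts lie together for Tac1.

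The genotype difference at P14 minus that at P0 was tested as an interaction term in 1 fit of all 12 libraries. Tissue, age, Cre line and control genotype differ together between these contexts and cannot be told apart. By edgeR 3 of 9 genes passed, against 1.79% of 18189 genes and 1.37% higher. Drd1 differed by 1.61 (SE 0.30, edgeR adjusted p = 0.00601), with an estimate below 0 at P0 and a rise at P14. Rgs9 differed by 0.99 (SE 0.22, edgeR adjusted p = 0.0287), although it passed in neither context alone, having a negative estimate at P0 and a positive one at P14. Foxp1 differed by 0.56 (SE 0.11, edgeR adjusted p = 0.0111).

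The interaction of Rgs9 lost the threshold without P14 knockout 2 or control 1, or without P0 knockout 2 or 3 or wild type 1 or 2, with edgeR adjusted p from 0.0516 to 0.0863. Those of Drd1 and Foxp1 kept it without any 1 library. All 9 interaction estimates were positive, with a median of 0.70 against -0.01 for all genes. Ppp1r1b at 1.07 (edgeR adjusted p = 0.0842), Adora2a at 1.02 (0.249) and Tac1 at 0.55 (0.133) did not pass. Neither did Penk at 0.70 (0.520), Pde10a at 0.20 (0.548) or Drd2 at 0.08 (0.925).

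Direct and indirect pathway members were compared within a library by ratios of CPM, with no test, since a ratio over chosen members is a score. Hippocampus does not contain the striatum, so the P14 ratios compare these genes and not the 2 pathways. The sum of Drd1 and Tac1 divided by that of Drd2, Adora2a and Penk was 0.888, 0.827 and 0.751 in the P0 wild types. In the P0 knockouts this ratio was 0.587, 0.490 and 0.428. The P0 groups did not overlap. The direct sum was 38.8 to 49.2 CPM in wild types and 27.6 to 32.1 in knockouts, and the indirect sum was 50.7 to 55.5 and 54.6 to 64.4 CPM. At P14 the ratio was 1.01, 0.680 and 0.854 in controls and 0.546, 0.4005 and 0.693 in knockouts, and knockout 3 was above control 2. Taken from mean log2 CPM instead of sums, the P14 ratio was 1.03 in controls and 0.945 in knockouts, so its size depended on the scale.

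The peptides and the receptors told different stories. The ratio of Tac1 to Penk, the 2 peptide precursors, was lower in every knockout of both contexts: 1.58, 1.33 and 1.34 in P0 wild types against 0.785, 0.725 and 0.698, and 1.53, 0.985 and 1.26 in P14 controls against 0.692, 0.385 and 0.798. At P0 Tac1 had the larger difference of the pair, and at P14 Penk did. The ratio of Drd1 to Drd2, the dopamine receptors, was 0.941, 0.890 and 0.915 in P0 wild types and 1.14, 0.682 and 0.612 in the P0 knockouts, which lay on both sides of them. At P14 the Drd1 to Drd2 ratio was 0.620, 0.704 and 0.778 in controls and 1.80, 1.63 and 1.86 in knockouts, with no overlap. Knockout 2, which stood apart in the level of most members, was the lowest of the 3 knockouts in this ratio.

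**Figure D4:**
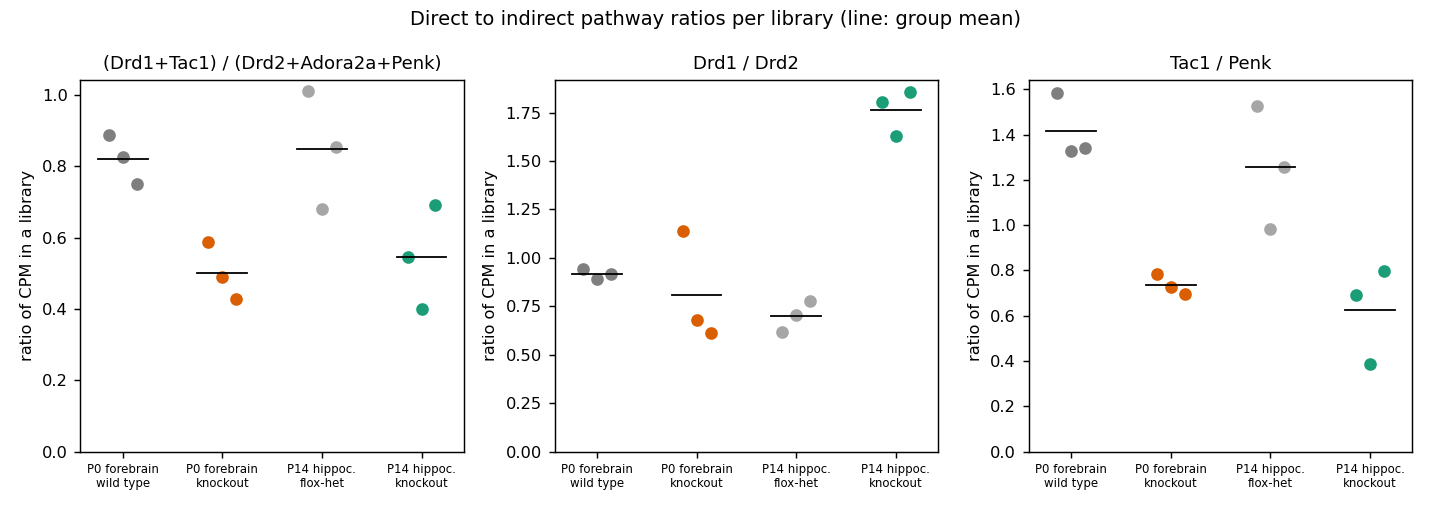
Ratios of CPM within each library (y axes, linear, from 0) for the direct sum over the indirect sum, Drd1 over Drd2, and Tac1 over Penk, by group, with a line at the group mean. Drd1 over Drd2 lies between 1.63 and 1.86 in the P14 knockouts and at 1.14 or lower in every other library.

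Other genes of these cells were read from lists of known markers. Of 7 further direct pathway genes, none passed edgeR at P0 or P14, with medians of -0.10 and 0.02. At an unadjusted p of 0.05, 2 of the 7 passed at P0 and 3 at P14. Of all genes tested, 2609 of 16176 passed that unadjusted p at P0 and 2622 of 17208 at P14. These shares are the background for every unadjusted count below. Pdyn, the precursor of dynorphin, the other peptide of direct pathway neurons, had 17.4, 17.98 and 15.2 CPM in P0 wild types and 11.2, 9.78 and 12.3 in knockouts. All Pdyn knockouts were below all wild types, at a log2 fold change of -0.60 (SE 0.13) and an edgeR adjusted p of 0.0516, and at P14 the estimate was 0.02. Of 3 further indirect pathway genes tested, none passed at P0 or P14, with medians of 0.15 and 0.59, and at an unadjusted p of 0.05 the counts were 1 and 3. Sp9, the most abundant of them and a factor of indirect pathway neurons, had a log2 fold change of 0.59 (SE 0.15, edgeR adjusted p = 0.0528) at P14.

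Of 12 further genes shared by the pathways, 3 rose at P14 and none fell, with 11 of 12 estimates positive and a median of 0.24. Meis2, a homeobox factor, rose by 0.98 (SE 0.10), Foxp2, a relative of Foxp1, by 2.27 (SE 0.22) and Rasgrp2, an activator of Rap signalling, by 0.52 (SE 0.11) on the log2 scale. Their edgeR adjusted p were 0.000234, 0.000105 and 0.0271. Meis2 and Foxp2 kept the threshold without any 1 library, and Rasgrp2 lost it in 5 of the 6 fits that each left out 1 library, all but that without control 3, with an edgeR adjusted p of up to 0.200. At P0 none of the 12 passed edgeR and 4 passed at an unadjusted p of 0.05, with 10 estimates negative and a median of -0.23.

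The cascade from dopamine receptors to cAMP was represented by 9 genes. At P14 Adcy5, the main adenylyl cyclase of striatum, rose by 0.55 (SE 0.08, edgeR adjusted p = 0.00234) and Arpp21, a phosphoprotein regulated by cAMP, by 0.39 (SE 0.07, edgeR adjusted p = 0.00959). Rgs7bp, which anchors RGS proteins such as the product of Rgs9 at the membrane, fell by 0.29 (SE 0.07, edgeR adjusted p = 0.0440). Adcy5 kept the threshold without any 1 library. Arpp21 lost it without knockout 1, knockout 2 or control 2, at up to 0.0751, and Rgs7bp lost it without any 1 of the 6 but control 3, at up to 0.271 by edgeR. Rgs7bp also lost it with the larger strand column, the non-robust fit, the fit of 12 libraries and the GC offset, at up to 0.157. The median of the cascade was 0.18 at P14 and -0.17 at P0, where all 9 estimates were negative, none passed edgeR and 4 passed at an unadjusted p of 0.05. Of 10 related receptors and peptides tested, none passed edgeR in either context, and 5 at P0 and 2 at P14 passed at an unadjusted p of 0.05. At P0 all 10 estimates were negative with a median of -0.51, and at P14 the median was -0.06. Adora1, the adenosine receptor that lowers cAMP, was the most abundant of them, with log2 fold changes of -0.20 at P0 and 0.22 at P14. Of the developmental factors of the lateral ganglionic eminence, where these neurons are born, 1 of 14 tested passed at P14, Meis2, with a median of 0.33. None of 15 passed edgeR at P0, where 3 passed at an unadjusted p of 0.05 and 12 estimates were positive, with a median of 0.15. These lists share genes, so their counts and medians are not independent. Most of the eminence factors, Meis2 and Sp9 among them, are also on the further direct, indirect or shared lists. Some cascade genes are also on the shared list, and Pdyn is also among the related receptors and peptides.

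**Figure D5:**
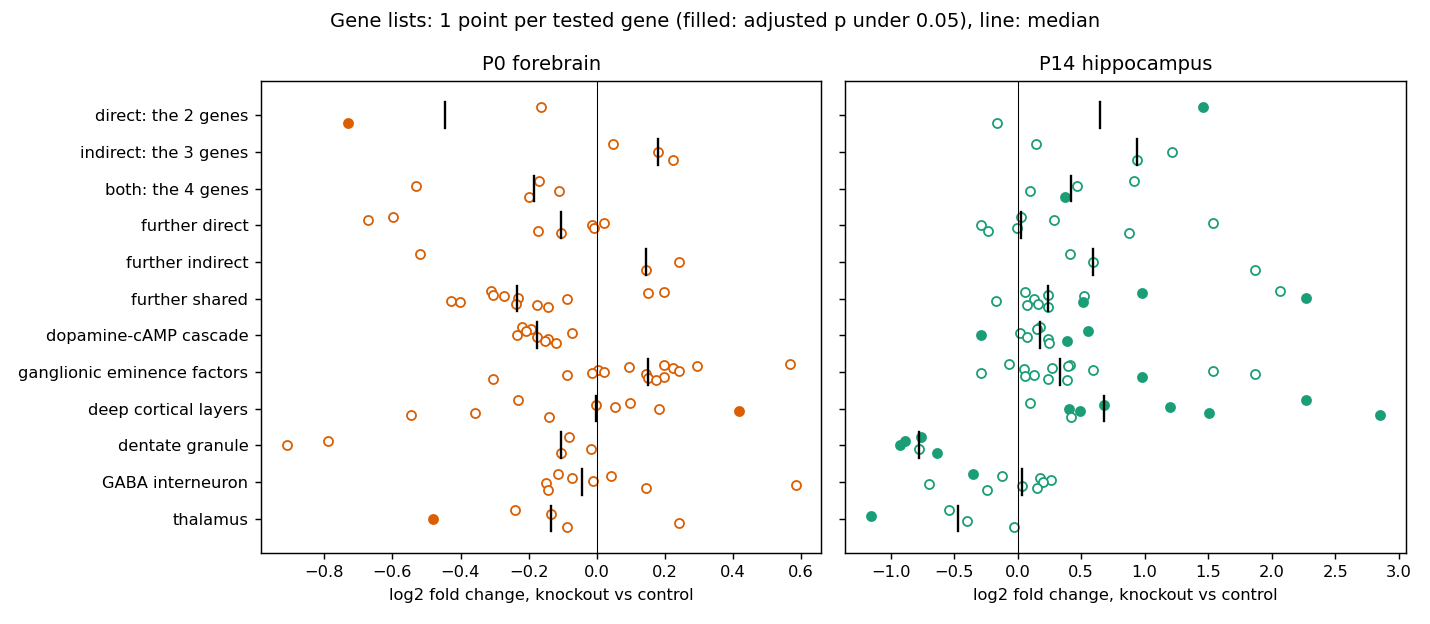
Log2 fold change of knockout against control (x axis, with different ranges in the panels) for the tested genes of each list (rows), at P0 (left) and P14 (right), with filled points past an edgeR adjusted p of 0.05 and a line at the list median. In the hippocampus the deep cortical layer list has 7 filled points to the right and the dentate granule list 4 to the left.

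Markers of other cells moved at P14 beside Drd1 and Foxp1, and these 2 genes are also known in deep cortical neurons. Of 9 markers of deep cortical layers, 7 rose: Foxp2, Syt6 (0.68), Rprm (1.20), Tbr1 (0.40), Fezf2 (0.49), Ccn2 (1.503) and Cplx3 (2.85, log2 scale). Foxp2 is also on the list of shared striatal genes. Summed, the 9 markers stood at 163 to 173 CPM in controls and 245 to 260 in knockouts, without overlap, and their median was 0.68. Of 5 dentate granule cell markers, 4 fell: Prox1 (-0.76), C1ql2 (-0.89), Dsp (-0.93) and Trpc6 (-0.63), with sums of 267 to 303 CPM in controls and 149 to 172 in knockouts. Of these 11 genes, Foxp2, Rprm, Ccn2, Cplx3, Prox1, C1ql2 and Dsp passed without any 1 library. Syt6, Fezf2, Tbr1 and Trpc6 lost the threshold without knockout 1, without knockout 3 and without either control 1 or control 2, Tbr1 and Trpc6 also without knockout 2, at edgeR adjusted p of up to 0.221. The part of either change in the Drd1 and Foxp1 values was not tested.

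Fewer genes were called in each of the lists of other cell types at P14. Of 9 markers of GABA interneurons Gad1 fell (-0.35), while 5 estimates were positive and 4 negative, with a median of 0.04. Of 4 thalamic markers tested Lef1 fell (-1.16), and all 4 estimates were negative, with a median of -0.47. Of 7 hippocampal pyramidal cell markers Bok fell (-0.44) and 1 other passed as higher. Their estimates were 3 positive and 4 negative, with a median of -0.04. At an unadjusted p of 0.05 these lists had 4, 3 and 3 genes, in that order. Gad1 and Bok lost the threshold without any 1 knockout or without control 1, Gad1 also without control 2, and Lef1 lost it without knockout 1 or control 2, at edgeR adjusted p of up to 0.144. No microglial, endothelial, forebrain identity or cholinergic marker passed edgeR at P14, and at an unadjusted p of 0.05 the counts were 1, 2, 0 and 0. Only 1 of the 3 cholinergic markers passed the filter on low counts and was tested at P14. Endothelial markers, led by Cldn5, summed to 142 to 151 CPM in controls and 117 to 123 in knockouts. Chat, the enzyme that makes acetylcholine in striatal interneurons, was near 0, averaging 0.148 CPM in controls and 0.179 in knockouts. Slc5a7, the choline transporter, was the most abundant cholinergic marker, and the sums overlapped, at 2.77 to 4.17 and 2.61 to 4.18 CPM. Choroid plexus markers, led by Ttr, ranged from 146 to 2510 CPM in the controls and from 1345 to 1998 in the knockouts, and none passed edgeR or an unadjusted p of 0.05.

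At P0, beside the fall of Tac1, Fezf2 (0.42) rose, 1 of 9 deep cortical markers of which 4 had positive and 5 negative estimates (median -0.00), and Prkcd (-0.48) of the thalamic list, P2ry12 (-0.93) of the microglial list and Slc17a7 (-0.54) of the forebrain list fell. All 4 lost the threshold without knockout 1, knockout 2, wild type 1 or wild type 2, Prkcd and Slc17a7 also without wild type 3, at edgeR adjusted p of up to 0.248. The deep cortical sums were 526 to 571 CPM in wild types and 571 to 582 in knockouts, and the thalamic sums overlapped, at 219 to 257 and 166 to 261 CPM. The cholinergic sums were 9.16 to 10.4 CPM in wild types and 4.39 to 6.72 in knockouts, at levels where Chat was below 1 CPM on average. No gene of the dentate, interneuron, cholinergic, choroid plexus, endothelial or pyramidal cell lists passed edgeR at P0, and 1, 0, 1, 3, 1 and 2 of them passed at an unadjusted p of 0.05. Tested at P0 were 8 of the 9 interneuron, 2 of the 3 cholinergic and 4 of the 5 choroid plexus genes. The part of these markers in the Tac1 value was not tested.

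The genes whose pattern was most like that of Drd1 were ranked by Pearson r of log2 CPM among 13921 genes, as a description in which all genes share the same libraries and the same gap between ages. Over all 12 libraries the leading genes included Tmem158 (0.958), Gm45623 (0.943), Dclk3 (0.941) and Gabra3 (0.941). Adora2a ranked 30 for likeness to Drd1, Foxp1 ranked 109 and Tac1 ranked 4289. For Drd2 the leading genes over 12 libraries were Prr18 (0.991), Crabp1 (0.988), the pseudogene Tpt1-ps5 (0.987), Sox2ot (0.985) and Fgd3 (0.984), and its nearest member, Foxp1, ranked 1674. Within the 6 P14 libraries, Tunar, Vstm2b, the pseudogene Gm28438, Rims1 and Tmem91 led for Drd1. For Drd2 the leading genes within P14 were St6gal1, Prickle1, Parvb, Kat14 and Zcchc9. None of the 5 leading genes for Drd1 was among the 5 for Drd2, over either set of libraries.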

How the data were processed

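RNA sequencing was done on individual P0 forebrains and P14 hippocampi of male mice. The authors deposited raw counts of reads per Ensembl gene, 1 table per library, made with STAR 2.7.5a on mm10/GRCm38 per the submitters' processing notes. Each table has an unstranded count and a count per strand. The larger strand column held 50.02% to 50.12% of the strand sum, so the unstranded counts were used, and reads from a gene and an antisense neighbour cannot be told apart. Overlapping genes of Penk, Ppp1r1b, Pde10a and Foxp1 had at most 10 counts in any library. The tables held gene lines only. Symbols, coordinates and exon lengths came from GENCODE vM21 (GRCm38), which gave a symbol to 55227 of 55487 identifiers. Promoter sequences came from RefSeq on GRCm38.p6. Isoforms and exon 7 were not analysed here.

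From the counts, the 6 libraries of an age were fitted together in edgeR 4.0.16 under R 4.3.3 (filterByExpr, TMM, robust quasi-likelihood fit and test), with Benjamini-Hochberg adjustment over all genes tested and a threshold of 0.05. The interaction and the comparison of controls came from 1 fit of 12 libraries. The SE was derived from the coefficient and its F statistic, and 95% intervals are normal ones. Log2 CPM used a prior count of 2. Exact permutation tests were two-sided. The fits were tested on simulated data in which 200 genes had a known 2-fold change. Replicates were numbered in accession order, and p-values measure the spread between these mice. Alternatives were RLE normalization, DESeq2 1.42.0, no filter or at least 10 counts in every library, the larger strand column, non-robust fitting, a fit of all libraries, a GC offset, the P0 library number series, and leaving out each library. Fits without a pair of P14 libraries were added after the data were seen.

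The genes, the lists and the tests were chosen with earlier results of these data known. Always named were the 9 genes and Auts2. From each list every gene called in either age is named, and otherwise the most abundant, and the 5 genes most like Drd1 and Drd2. Pdyn and Chat fall outside that rule and were named after their values were seen. Gpr52, of the indirect list, matched no identifier. A few genes that the rule would name are not reported here.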

Additional observations from a re-analysis of the deposited data

Results flagged for a closer look

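The genotype difference at P14 minus that at P0 passed the interaction test of edgeR, with an adjusted p under 0.05, for 3 of the 9 striatal genes: Drd1 (1.61 on the log2 scale), Rgs9 (0.99) and Foxp1 (0.56). Drd1 and Foxp1 rose at P14 and did not pass at P0, and Rgs9 passed in neither age alone.

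The same test passed for 13 marker genes named beside them. Of the shared striatal genes and the cAMP cascade these were Meis2 (0.81), Foxp2 (2.49), Rasgrp2 (0.90), Adcy5 (0.74) and Arpp21 (0.52). Of the deep cortical list they were Syt6 (0.67), Rprm (1.13), Ccn2 (1.85) and Cplx3 (3.37), besides Foxp2. Prox1 of the dentate list differed by -0.69, Bok of the pyramidal cell list by -0.55, P2ry12 of the microglial list by 0.90 and Slc17a7 of the forebrain list by 0.56. Meis2, Foxp2, Rasgrp2, Adcy5, Rprm, Prox1 and P2ry12 passed in all 12 fits that each left out 1 library. Cplx3 passed in 10 (not without P14 control 2 or P0 wild type 2) and Ccn2 in 10 (not without P14 knockout 2 or control 1). Syt6 passed in 8 (not without P14 knockout 1, control 1 or 2 or P0 wild type 1). Arpp21 and Slc17a7 passed in 6 each, lost without P14 knockout 1 or 2, P14 control 2, P0 knockout 1 or 2 or P0 wild type 1. Bok, with an edgeR adjusted p of 0.0493, passed in 3, those without P14 control 3, P0 knockout 2 or P0 wild type 3. The edgeR adjusted p of these lost calls reached 0.160. Arpp21, Cplx3 and Slc17a7 were also lost with the larger strand column, Slc17a7 and Bok with the non-robust fit, and Bok with RLE normalization. Tissue, age, Cre line and control genotype differ together between the ages.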

How the results depend on the processing

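No paired analysis was possible because the labels give no replicate numbers shared between groups. At P0 the number of the 9 genes called was 1, and it was 2 with DESeq2, with no filter, with the library series as a term and with libraries 1407 to 1410 alone, and 0 to 2 without 1 library. All genes called at P0 numbered 147, against 382 with DESeq2, 625 with no filter, 50 with the non-robust fit, 284 in the fit of 12 libraries, 335 with the GC offset, 465 with the series term, 2107 with libraries 1407 to 1410 alone, and 1 to 775 without 1 library. At P14 the 2 genes called became 4 with no filter, 3 with the strand column, the non-robust fit, the fit of 12 libraries or without knockout 2 and control 3, and 0 without knockout 2 and control 1, and were 1 to 3 without 1 library. All genes called at P14 numbered 342, against 534 with DESeq2, 814 with no filter, 1403 without knockout 2 and control 3, 104 without knockout 2 and control 1, and 104 to 1808 without 1 library. With the strand column, the non-robust fit and the fit of 12 libraries they lay within 104 to 1403. For the interaction, 3 genes became 5 with no filter and 4 with DESeq2 or the non-robust fit, stayed 3 with the strand column but with Drd1 lost, and were 2 to 4 without 1 library. All genes called there numbered 326, against 531 with DESeq2, 646 with no filter, 205 with the strand column, and 125 to 905 without 1 library. Between the control groups, 8 genes became 9 with DESeq2, the strand column or the non-robust fit, and were 7 to 9 without 1 library.

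Signs turned only in small estimates. Drd2 at P0 was -0.0209 with the strand column, -0.000614 without knockout 3 and -0.0343 with libraries 1407 to 1410, with a highest value of 0.115 without 1 library. Adora2a at P0 was -0.00257 with the strand column. Drd2 at P14 was -0.17 without knockout 2, -0.28 without knockout 2 and control 3, -0.15 without knockout 2 and control 1, and at most 0.348 without 1 library. Pde10a at P14 was -0.0794 without knockout 2 and control 1. The Drd2 interaction was -0.24 without P14 knockout 2 and -0.0340 without P14 control 3, and at most 0.292 without 1 library. The Drd1 interaction was 1.29 with the strand column, with an edgeR adjusted p of 0.0571. The direct to indirect ratio, as a power of 2 of the mean log2 difference, was 1.12 and 0.736 in P0 wild types and knockouts, and 1.03 and 0.945 at P14. Of the marker genes of the lists, 10 of the 20 called at P14 and 0 of the 4 called at P0 passed in every fit without 1 library, and none turned sign. With another setting on all libraries, the P14 calls lost were Rgs7bp and Tbr1 (each with the strand column, the non-robust fit, the fit of 12 libraries and the GC offset), Trpc6 (strand column, fit of 12 libraries), C1ql2 (fit of 12 libraries), and Rasgrp2, Fezf2 and Lef1 (strand column). All 4 P0 marker calls were lost with the strand column and the non-robust fit, at edgeR adjusted p of up to 0.0660. Without knockout 2 and control 1, the named P14 marker calls that remained were Foxp2, Meis2, Rprm, Cplx3, Prox1, C1ql2 and Dsp. The causes were not tested. Counts of the lowest members, 44 to 81 for Drd1 and Drd2 in P14 controls, limit their precision.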
